A study of Rattus norvegicus with 31 samples.

Results

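The genes described here are those whose symbol begins with Psm, then a letter from a to g and a number: 45 of the 11289 genes in the deposited count table of rat gastrocnemius muscle. Symbols of this form are given to the subunits of the proteasome and to the proteins that assemble, activate or inhibit it. By role the 45 genes comprise 7 alpha and 9 beta subunits of the 20S core particle, 6 ATPases and 3 other subunits of the base of the 19S regulatory particle, 8 subunits of its lid, 5 activators or inhibitors and 6 assembly chaperones. The last match, Psmc3ip, is a cofactor of meiotic recombination and no part of the proteasome. The 33 subunits of the 20S core, base and lid are called the core subunits below. All 45 genes passed the filter on low counts, among 10082 genes tested.

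The animals were 31 female Sprague Dawley rats, 7 months old, kept on chow. Control rats and rats lacking Ucp1, the uncoupling protein of brown fat, spent 14 days either at room temperature (8 control, 7 knockout) or at 4 °C (8 control, 8 knockout). How the Ucp1 allele was made is not given in the sources used here, and Ucp1 itself was not analysed here. Each library holds 3′ tag reads of 1 gastrocnemius, an extensor of the ankle made mostly of fast fibres, so a count is about 1 read per captured transcript end and is not scaled by transcript length. Levels are given as CPM, the count scaled to a common library total after TMM adjustment. Library totals ran from 6559971 to 11859690 counts. The 11 measured fast-muscle markers summed to between 105640 and 232163 CPM per animal, with none at 0.

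The proteasome is the main ATP-dependent protease of the cytosol and nucleus. The 20S core is a barrel of outer alpha rings and inner beta rings, and its cutting sites lie in the beta subunits Psmb5 (chymotrypsin-like), Psmb6 (caspase-like) and Psmb7 (trypsin-like). The 19S particle binds ubiquitinated proteins, removes the ubiquitin and threads the chain into the barrel. Interferon induces other catalytic subunits, among them Psmb9 in place of Psmb6 and Psmb10 in place of Psmb7, and the PA28 cap made of Psme1 and Psme2. In skeletal muscle the pathway is best known for the breakdown of myofibrillar proteins during atrophy, when its genes and the muscle ubiquitin ligases rise together.

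Promoter sequence was taken from RefSeq (GRCr8), as 250 bases before to 50 bases after the start of each gene, and 41 of the 45 genes had an entry. Both strands were searched for 10 short motifs and the shares set beside 7774 genes of the table with such an entry. The interferon-stimulated response element, GAAA and GAAA with any 2 bases between them, was in 6 of 41 promoters (14.6%, against 2.88% of the 7774), those of Psma4, Psmb3, Psmb10, Psmd7, Psme2 and Psmg4. The ETS site CCGGAAG was in 14 (34.1%, against 18%) and the NF-Y box CCAAT in 20 (48.8%, against 37.8%). The antioxidant response element core TGACNNNGC was in 8 (19.5%, against 14.9%), and the GC box GGGCGG in 30 (73.2%, against 63.0%). The other motifs were the AP-1 site TGANTCA (1 promoter), the gamma-activated site TTCNNNGAA (3), the E-box CACGTG (5), the TATA box TATAAA (4) and the site of nuclear respiratory factor 1 (6), at 2.44%, 7.32%, 12.2%, 9.76% and 14.6% against 4.84%, 6.51%, 9.7%, 6.82% and 10.4%. A match is only a run of letters, not a shown binding site. The upstream sequences of Psme1, the gene called in the cold, of its partner Psme2 and of the inducible subunit Psmb10 are printed 5′ to 3′ on the strand of the gene, with matches to this element in capitals, and lie at chr15:33038901-33038970, chr15:33052752-33052821 and chr19:50743293-50743380 (Psme1 on the plus strand, Psme2 and Psmb10 on the minus strand). Psme1 has no match in its 300 bases.
Psme1: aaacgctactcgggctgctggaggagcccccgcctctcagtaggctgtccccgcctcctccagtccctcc
Psme2: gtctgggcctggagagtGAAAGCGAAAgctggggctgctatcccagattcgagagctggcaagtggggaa
Psmb10: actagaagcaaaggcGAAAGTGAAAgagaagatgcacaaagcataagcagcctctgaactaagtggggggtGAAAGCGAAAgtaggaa

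The upstream sequences of Psma1, Psma2 and Psma5, 3 alpha subunits that differed most between animals of a group, are shown in the same way with CCAAT in capitals. They lie at chr1:177887926-177887995, chr17:55260464-55260533 and chr2:198584420-198584489 (Psma1 and Psma2 on the minus strand, Psma5 on the plus strand), and Psma5 has 2 matches. CCAAT was also in the promoter of the steadier Psma4 (1.95-fold from lowest to highest animal) and was not found in that of Psmd5 (8.25-fold). A link between CCAAT and the spread between animals was not tested.
Psma1: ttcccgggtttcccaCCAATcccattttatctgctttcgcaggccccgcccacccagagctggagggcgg
Psma2: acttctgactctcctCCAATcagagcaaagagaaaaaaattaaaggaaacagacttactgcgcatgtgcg
Psma5: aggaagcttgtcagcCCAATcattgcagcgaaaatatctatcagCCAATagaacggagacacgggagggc

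The levels of the 45 genes spanned more than 2 orders of magnitude. The core particle holds its alpha and beta subunits in equal number. Leaving out the inducible Psmb9 and Psmb10, the mean levels of these subunits ran from 47.3 CPM (Psmb2) to 755 CPM (Psma7). Averaged over the 31 animals, Psma7, an alpha subunit, was highest at 755 CPM, followed by the lid subunit Psmd3 (614 CPM), the beta subunit Psmb1 (553 CPM), the base ATPase Psmc5 (496 CPM) and the catalytic Psmb5 (435 CPM). The lowest was the base chaperone Psmd10 at 2.28 CPM, below the chaperone Psmd9 (7.28 CPM) and the inducible Psmb9 (7.43 CPM). These differences hold across genes only as far as the 3′ ends of all transcripts were captured and annotated alike, and 19 of the 45 genes have at least 1 annotated pseudogene that could take or give reads.

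**Figure D1:**
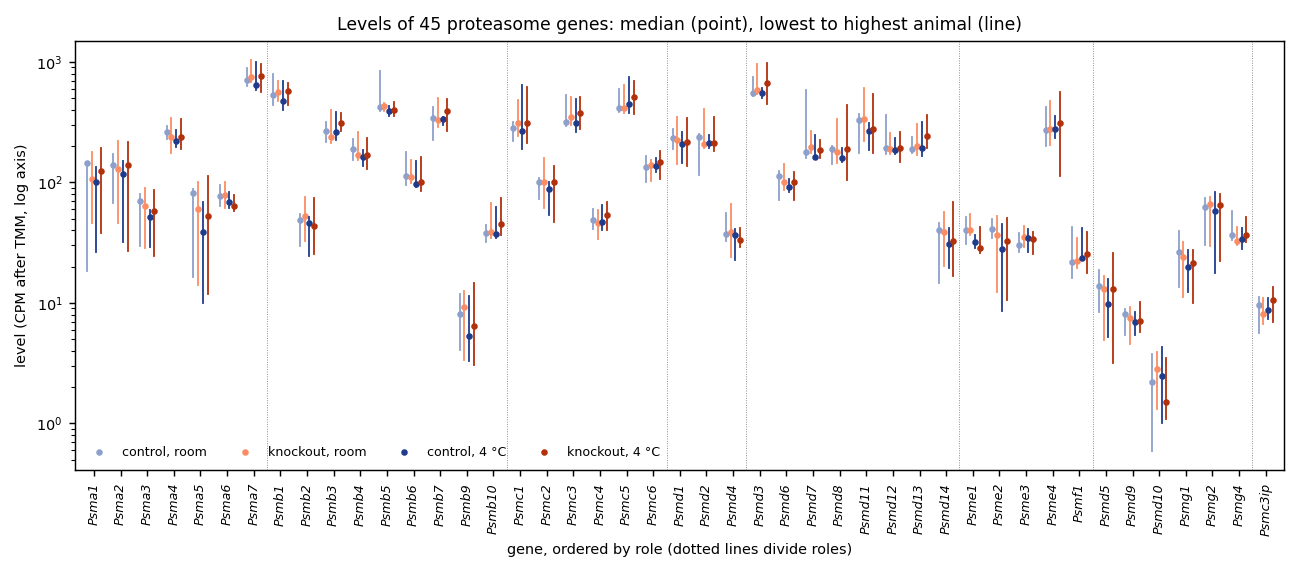
Level of each of the 45 genes (CPM after TMM, log axis) in the 4 groups, as the median (point) and the lowest to highest animal (line). Psma7 sits highest and Psmd10 lowest, and the lines of Psma1, Psma2 and Psma5 are among the longest.

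The inducible catalytic subunits Psmb9 and Psmb10 were lower than the constitutive Psmb6 and Psmb7 whose place they take. Averaged over all animals, Psmb10 (43.6 CPM) was near the constitutive, non-catalytic beta subunit Psmb2 (47.3 CPM). Psmb5 was at a mean of 519 ± 189 CPM (SD, n = 8) in room-temperature controls, 428 ± 22.4 (n = 7) in room-temperature knockouts, 393 ± 22 (n = 8) in cold controls and 399 ± 41.2 (n = 8) in cold knockouts. The wide spread of the first group came from animals 1 and 2. Psmb7 had group means from 331 to 391 CPM and Psmb6 from 108 to 127 CPM. Psmb10 had group means from 38.1 to 49.0 CPM and Psmb9 from 5.94 to 8.29 CPM. The third inducible subunit, Psmb8, was not analysed here. Among the base ATPases, which unfold the substrate, Psmc4 was lowest, with group means of 47.5 to 53.8 CPM. In the base, the ubiquitin receptor Psmd4 was at 34.1 to 41.0 CPM while the scaffold subunits Psmd1 and Psmd2 lay above 200 CPM in each group mean. In the lid, Psmd14, the enzyme that cuts ubiquitin off the substrate, was lowest, at 30.6 to 38.0 CPM.

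Libraries differed within groups in ways that touch these genes, and 3 sets stood apart. Knockout animal 10 at room temperature and knockout animals 29 and 31 in the cold had a mean log2 level of the 33 core subunits of 7.70, 7.57 and 7.55, while the other 28 animals ran from 6.88 to 7.28. The 45 genes took 1.24%, 1.19% and 1.17% of all counts in these 3 libraries and 0.674% to 0.843% in the others. Their TMM factors, 1.15, 1.15 and 1.20, were the 3 highest. Control animals 1 and 2 at room temperature had scores of -62.3 and -79.8 on the second principal component of all genes, on which the others ran from -9.75 to 17.2. The first component held 35.3% of the variance, and 7 animals from all 4 groups had its lowest scores: control 1 and knockouts 9 and 12 at room temperature, and controls 17 and 23 and knockouts 25 and 28 in the cold. The labels name no batch or date for any of them, and values without them are given beside the results they moved most.

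Psme1, the alpha subunit of the PA28 activator, fell in the cold averaged over genotypes, and no other of the 45 genes passed that test. PA28 caps the core particle without the use of ATP or ubiquitin and is known for its part in making peptides for antigen presentation. Psme1 was at 30.6 to 51.9 CPM (median 40.5, n = 8) in room-temperature controls and at 36.6 to 54.4 (median 40.1, n = 7) in room-temperature knockouts. It was at 28.3 to 36.7 CPM (median 32.0, n = 8) in cold controls and at 25.8 to 42.7 (median 28.6, n = 8) in cold knockouts. The groups overlapped, but 15 of the 16 cold animals were below the room-temperature median of their own genotype. The exception was knockout 29, 1 of the 3 animals with high core subunits.

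Averaged over genotypes, the log2 fold change of Psme1 was -0.41 ± 0.09 (SE; 95% interval -0.58 to -0.23; adjusted p = 0.00354, edgeR quasi-likelihood test with Benjamini-Hochberg adjustment over all genes). In this comparison 1.98% of the genes tested were called lower and 5.65% in either direction, so 1 of 45 genes called lower is close to the background share for that direction. Leaving out each animal in turn gave -0.46 to -0.37, with adjusted p between 0.000813 and 0.00912. Within genotypes the change was -0.35 ± 0.12 in controls (adjusted p = 0.159) and -0.46 ± 0.12 in knockouts (adjusted p = 0.0514). The difference between the 2 cold effects, -0.11, gave an unadjusted p of 0.54. In knockouts the call depended on the fit: it passed in DESeq2 (adjusted p = 0.0132) and without knockouts 10, 29 and 31 (-0.53, adjusted p = 0.0478), and did not pass when only the knockout libraries were fitted (adjusted p = 0.155).

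The partner Psme2, with which Psme1 forms the PA28 ring, did not pass the test. It was at 34.8 to 49.9 CPM (median 40.8) in room-temperature controls and at 8.64 to 45.2 (median 28.1) in cold controls. In knockouts it was at 12.4 to 52.8 CPM (median 36.7) at room temperature and at 10.6 to 50.8 (median 32.9) in the cold. Its spread was far wider than that of Psme1, 6.11-fold from the lowest to the highest animal, and its change averaged over genotypes was -0.38 ± 0.19 (adjusted p = 0.270). Psme1 and Psme2 lie on chromosome 15 with 1 protein-coding gene between them (RefSeq, GRCr8). The nuclear homologue Psme3 had group means of 31.1 to 34.5 CPM, the PA200 activator Psme4 of 282 to 329 CPM and the inhibitor Psmf1 of 24.1 to 26.2 CPM. None of these 3 passed the test in any comparison.

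**Figure D2:**
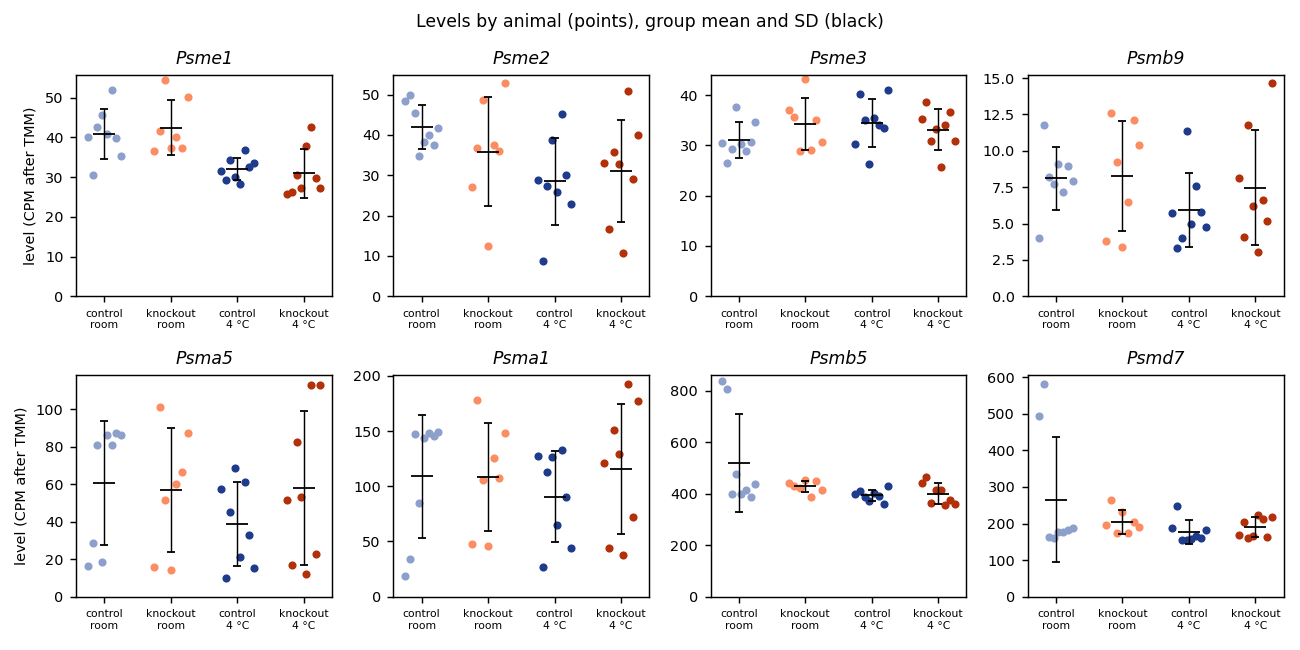
Level of 8 genes (CPM after TMM) in each animal (points), with the group mean and SD in black. The cold animals sit low for Psme1, animals of every group split widely for Psma5 and Psma1, and control animals 1 and 2 stand alone for Psmb5 and Psmd7.

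Markers of other cells also moved with cold averaged over genotypes, where 5.65% of all genes were called in either direction. Their part in the result for Psme1 was not tested. Of 13 measured immune markers 4 rose (Cd163, C1qb, S100a8 and S100a9), and their summed level ran from 104 to 394 CPM in room-temperature controls, 255.5 to 516 in room-temperature knockouts, 339 to 563 in cold controls and 381 to 590 in cold knockouts. Of 8 endothelial markers 1 fell (Cdh5), and the sums ran from 205 to 392, 180 to 350, 147 to 251.0 and 161 to 345 CPM in the same order. No immune or endothelial marker was at 0 in any library. Of 9 slow-fibre markers 8 rose and none of 11 fast-fibre markers passed. Of 8 white adipocyte markers 1 rose (Retn) and of 3 erythrocyte markers 2 rose. In such bulk tissue fewer cells of a type and less RNA per cell cannot be told apart.

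In control rats alone, none of the 45 genes passed the test for cold, against 0.853% of all genes (edgeR, 86 genes). At an unadjusted p under 0.05 there were 5 of the 45 (14.2% of all genes), and DESeq2 also called 0. The median log2 fold change of the 45 was -0.14 (-0.03 over all genes), and 33 of the 45 were negative. Positive values made up 26.7% of the 45 and 46.1% of all genes. All 7 alpha subunits were negative, from -0.64 ± 0.48 (Psma5) to -0.09 ± 0.13 (Psma7). So were 7 of the 8 lid subunits, while the ATPases split 3 and 3. Psma1, Psma2, Psma3 and Psma5 all followed the first component between animals (r of 0.92 to 0.98), so their signs are not separate results. The smallest adjusted p was that of Psmb5, -0.40 ± 0.14 (adjusted p = 0.156), followed by Psme1, and the lid subunit Psmd7 had -0.59 ± 0.22 (adjusted p = 0.207).

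Both of those values rest on control animals 1 and 2. Psmb5 was at 836 and 807 CPM in these animals and at 388 to 475 CPM in the remaining 6 controls of that group. Without the pair its change was -0.09 ± 0.08 (adjusted p = 0.607). Psmd7 was at 495 and 583 CPM in the pair and at 160 to 188 CPM in the other 6. Without the pair the change of Psmd7 was 0.02 ± 0.12 (adjusted p = 0.947). Over the 45 genes, both animals lay above all of the other 6 for 16 genes and below all of them for 11. The matching shares over all genes were not counted. The pair stood apart on the second principal component of all genes, so these counts need not be particular to the 45. The high ones included Psmd12, Psmf1 and Psmg4, and the low ones Psma1 (18.4 and 33.8 CPM against 85.1 to 149), Psmd2 and Psmd14. Without the pair 31 of the 45 genes were negative for cold in controls, 10 had changed sign, and the median was -0.09.

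In knockout rats alone, none of the 45 genes passed the test for cold, against 1.38% of all genes (edgeR, 139 genes). There were 2 at an unadjusted p under 0.05 (14.3% of all genes), Psme1 and the alpha subunit Psma6, and DESeq2 called 1, Psme1. The median was -0.01 (0.02 over all genes) and 23 of the 45 were negative. Positive values made up 48.9% of the 45 and 53.4% of all genes. Psma6 had -0.25 ± 0.11 (adjusted p = 0.284). Averaged over genotypes the median was -0.10 (-0.02 over all genes), and Psmb5 (-0.25 ± 0.10, adjusted p = 0.127) and Psma6 (-0.17 ± 0.08, adjusted p = 0.190) followed Psme1 by p. Without control animals 1 and 2 the averaged change of Psmb5 was -0.09 (adjusted p = 0.337). The base had the largest of the positive values, Psmc1 at 0.21 ± 0.16 (adjusted p = 0.535), which was -0.06 without the 7 animals lowest on the first component. Among the chaperones Psmg1 had the smallest p, with -0.33 ± 0.17 (adjusted p = 0.275).

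**Figure D3:**
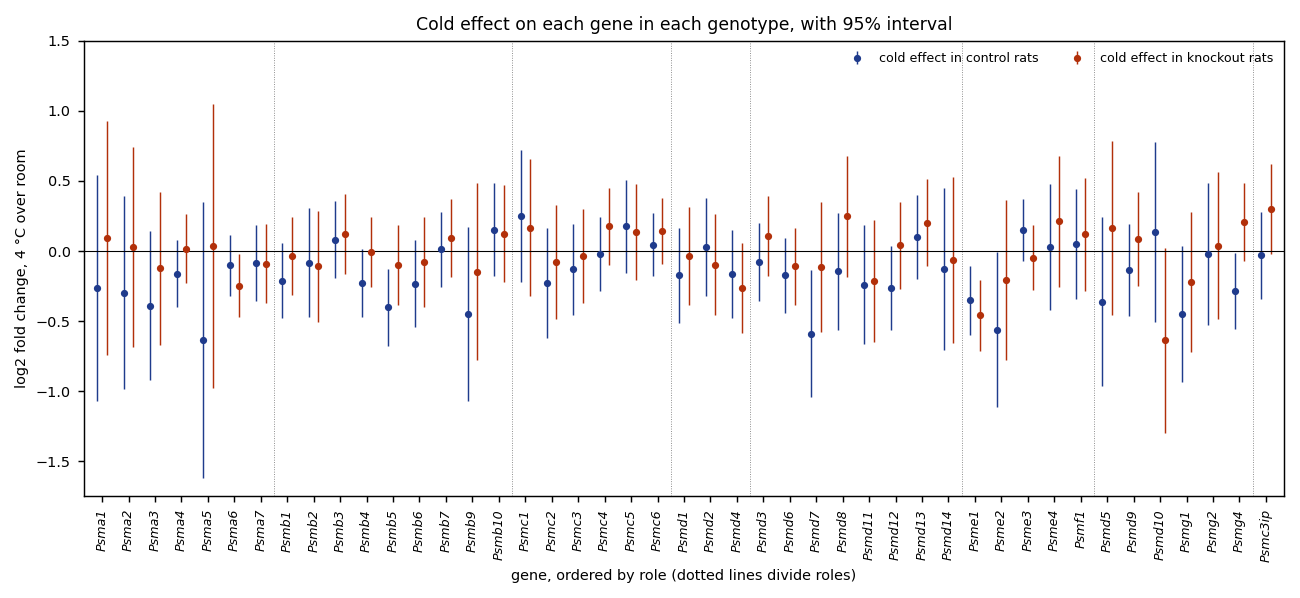
Log2 fold change of each of the 45 genes at 4 °C over room temperature, in control (blue) and knockout (red) rats, with 95% intervals. Most intervals cross 0, and Psme1 is the gene whose intervals lie below 0 in both genotypes.

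Between knockout and control rats none of the 45 genes passed the test, at either temperature (0 called by edgeR and 0 by DESeq2). At room temperature the test called 0% of all genes, and none of the 45 had an unadjusted p under 0.05 (7.06% of all genes). The median of the 45 was 0.02 (-0.03 over all genes), with 26 positive (57.8%, against 45.4% of all genes). The lowest adjusted p was that of Psmb5, -0.28 ± 0.14 (adjusted p = 0.699), a comparison that shares the 8 room-temperature controls, animals 1 and 2 included, with the cold comparison in controls. Without those animals it was 0.04 ± 0.08 (adjusted p = 0.950).

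In the cold, the test called 0.00992% of all genes, 1 gene, and none of the 45, of which 2 had an unadjusted p under 0.05 (6.28% of all genes). Both were lid subunits: Psmd8 with 0.50 ± 0.20 (adjusted p = 0.726) and Psmd3 with 0.31 ± 0.14 (adjusted p = 0.748). Most values were positive, 39 of 45 (57.3% of all genes), with a median of 0.15 (0.04 over all genes), and this included all 9 beta subunits, all 6 ATPases and all 8 lid subunits. Psmd8 was at 148 to 192 CPM (median 159) in cold controls and at 105 to 441 (median 190) in cold knockouts, where animals 29 and 31 were at 441 and 387. Without knockouts 10, 29 and 31 the difference was 0.08 ± 0.13 for Psmd8 and 0.12 ± 0.10 for Psmd3, with unadjusted p of 0.526 and 0.240 (edgeR). Without these 3 animals the median of the 45 was 0.03 (0.01 over all genes), 21 were negative and 15 had changed sign. The cold effect did not differ between genotypes past the test for any of the 45 genes (edgeR and DESeq2; 0% of all genes called by edgeR), with 1 at an unadjusted p under 0.05 (7.31% of all genes). That gene was the assembly chaperone Psmg4, with 0.49 ± 0.19 (adjusted p = 0.587), and in room-temperature controls it was at 58.1 and 57.6 CPM in animals 1 and 2 and at 33.1 to 36.8 in the other 6. Without that pair it was 0.28 ± 0.16 (unadjusted p = 0.0877, edgeR).

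The balance of inducible to constitutive catalytic subunits was followed within each library as a log2 ratio. Psmb9 stood at a median of 6.87% of Psmb6 in room-temperature controls, 8.36% in room-temperature knockouts, 4.99% in cold controls and 6.80% in cold knockouts. Animals ranged from 1.92% to 14.4%. Psmb10 stood at 11.9%, 11.1%, 11.7% and 11.7% of Psmb7, with animals from 6.83% to 27.6%. None of the 4 comparisons of each ratio passed an exact two-sided permutation test, with adjusted p = 0.980 in all 8 and unadjusted p from 0.441 to 0.980. The largest difference, -0.27 for Psmb9 over Psmb6 in cold against room-temperature controls, was smaller than the SD within either group (0.63 and 0.74, n = 8 each). In control animal 1 the log2 ratio of Psmb9 to Psmb6 was -5.44, apart from the rest of its group. The other groups held animals as low: -5.50 in room-temperature knockouts, -5.48 in cold controls and -5.71 in cold knockouts.

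Of the 45 genes, 15 had an SD of the log2 level within groups above the median over all genes, and the rest did not. The wide ranges given first below are therefore not typical of the set. For Psma5, the widest, animals of a group differed more than the group means. Psma5 was at 16.5 to 87.4 CPM (median 80.9) in room-temperature controls and at 14.2 to 101 (median 60.0) in room-temperature knockouts. It was at 9.97 to 68.8 CPM (median 39.0) in cold controls and at 12 to 113 (median 52.4) in cold knockouts. All groups thus held low and high animals, with an 11.4-fold range over the 31 animals, and Psma1 (10.4-fold), the chaperone Psmd5 (8.25-fold) and Psma2 (8.10-fold) came next. At the other end Psme3 ranged 1.68-fold, Psma6 1.73-fold, Psmc6 1.81-fold and Psma7 1.85-fold. Alpha subunits of the same ring were therefore at both ends of the order.

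Subunits of the same complex did not all move together between animals. The score on the first principal component of all genes, which these genes entered too, correlated with the log2 level above 0.5 for 18 of the 45 genes and below -0.5 for 12 (26% and 23.7% of all genes; 31 libraries). The positive side held Psma5 (r = 0.98), Psma2 and Psma3 (0.94 each), the ATPase Psmc2 (0.93), Psma1 and Psmd5 (0.92 each) and the chaperone Psmg2 (0.90). The negative side held Psmb6 (-0.80), Psmf1 (-0.79), the ATPases Psmc5 (-0.78) and Psmc3 (-0.76), and Psmb10 (-0.71). Each of the alpha ring, the beta ring and the ATPase ring had members on both sides. With group means subtracted, Psma1 and Psma3 gave the highest r of any pair, 0.96, and Psma1 and Psmb6 the lowest, -0.92. The median r over the 528 pairs of core subunits was 0.23 (rho 0.15), with 19.3% of pairs above 0.7, against a median of -0.000813 and 3.25% of pairs over all genes. Without knockouts 10, 29 and 31 the median over the core pairs was -0.04 and 18.2% of pairs were above 0.7. These are descriptions, since the genes share libraries, depth and scaling.

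**Figure D4:**
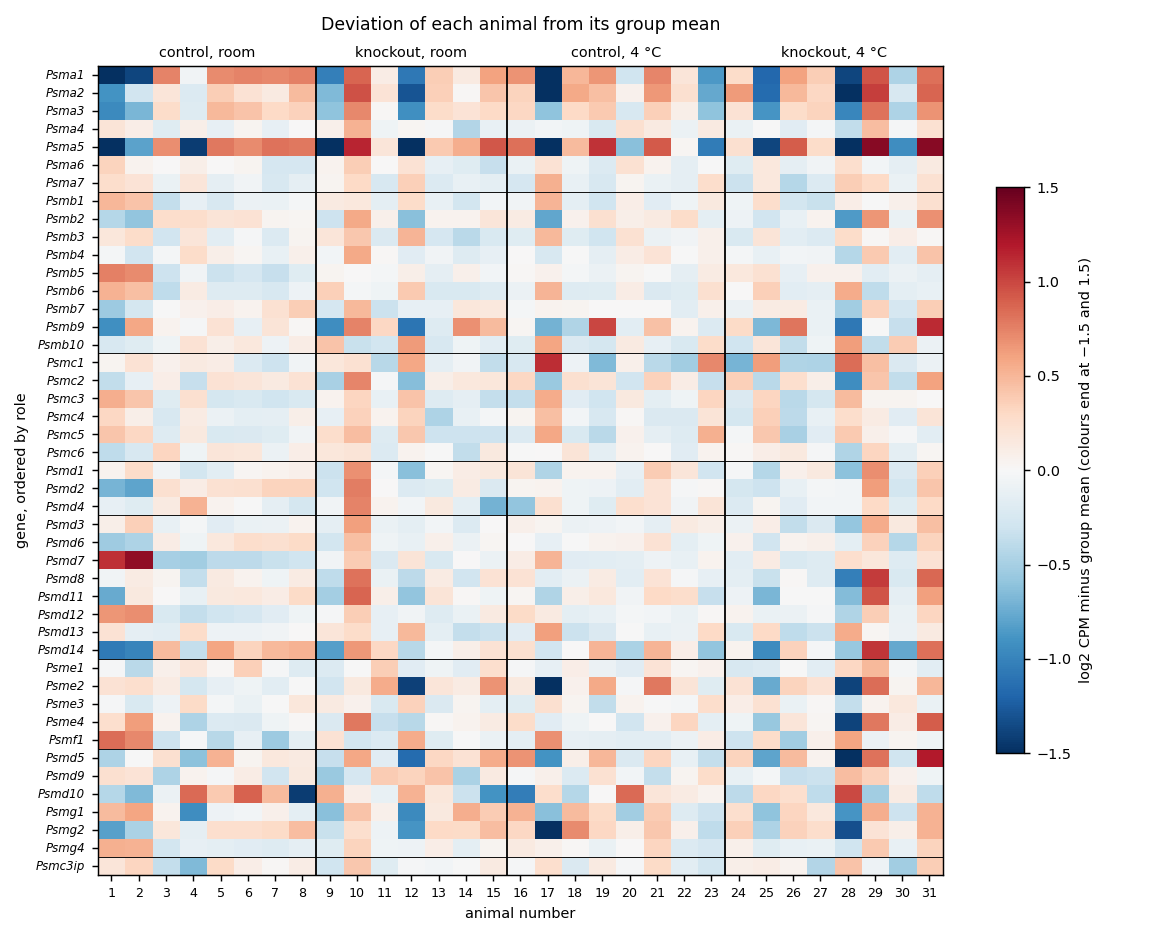
Deviation of the log2 level of each gene (rows, by role) in each animal (columns, by group) from its group mean, from blue (lower) to red (higher), with colours ending at -1.5 and 1.5. Animals 10, 29 and 31 are red in most rows, animals 17 and 28 are deep blue in Psma1, Psma2 and Psma5 and red in Psmc1 and Psmf1, and animals 1 and 2 are red in Psmb5 and Psmd7.

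In knockouts 10, 29 and 31 most of the genes were high. The 3 animals were picked for their high mean of the core subunits, so the counts below largely repeat that choice. The matching shares over all genes were not counted. All 3 were above the median of the other 28 animals for 35 of the 45 genes and above every one of the 28 for 13: Psma1, Psma2, Psma5, Psmb2, Psmb4, Psmb7, Psmc2, Psmd2, Psmd3, Psmd8, Psmd11, Psmd14 and Psme4. Psmd8, an essential lid subunit, was at 335, 441 and 387 CPM against 105 to 222 in the others. Psmd11, whose amount is known to limit assembly of the 26S particle, was at 610, 542 and 431 CPM against 176 to 381. Psmd14 was at 57.1, 68.7 and 57.9 CPM against 14.5 to 46.3. Not every subunit was high: Psmb5 was at 431, 356 and 361 CPM against 359 to 836 in the others, and Psmb6 at 114, 84.3 and 102 CPM against 91.6 to 178. Of the 3 constitutive cutting subunits Psmb7 alone was above all other animals in each of the 3, at 505, 486 and 496 CPM against 224 to 421.

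**Figure D5:**
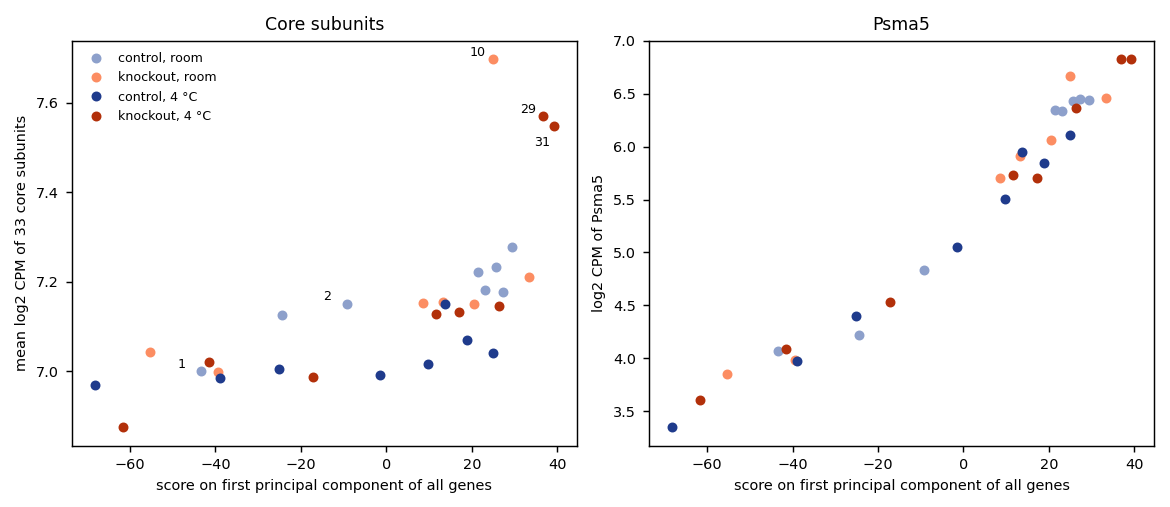
Score of each animal on the first principal component of all genes (x axis) against the mean log2 level of the 33 core subunits (left) and the log2 level of Psma5 (right), coloured by group. Psma5 follows the score through all 4 groups, while the core mean of knockouts 10, 29 and 31 lies above that of all other animals, 7.55 to 7.70 against at most 7.28.

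Across the 31 animals, with group means subtracted, the core subunits that best followed the mean of the others were Psmd8 (r = 0.91, rho 0.82), Psmd11 (0.87, rho 0.76) and Psmb4 (0.82, rho 0.56). Psmb10 (-0.56) and Psmb6 (-0.54) ran against it. The order depended on knockouts 10, 29 and 31. Without them r was 0.73 for Psmd8, 0.76 for Psmd11 and 0.39 for Psmb4, and the core subunits with the highest r were Psmc2 (0.84) and Psma3 (0.79). On the other side Psmc3 was then lowest (-0.84), with Psmb6 at -0.78 and Psmb10 at -0.63. Of 6649 other genes with a mean of at least 5 CPM, 16 (0.241%) had an r above 0.8 to the core mean, and the median r was -0.05. The 10 most alike were Nol3 (0.92), Ctsl, Hnrnpu, Hgs, Kcmf1, Spryd7, Eny2, Zwint, Sqstm1 and Myl12a (0.82). Ctsl, the lysosomal protease cathepsin L, was at 149, 333 and 290 CPM in knockouts 10, 29 and 31 and at 23.6 to 147 in the others. Sqstm1, the p62 receptor that brings ubiquitinated cargo to autophagosomes, was at 615, 714 and 651 CPM against 206 to 477. Without these 3 animals r fell to 0.32 for Hgs, 0.46 for Spryd7 and 0.59 for Sqstm1, and was 0.88 for Eny2, 0.84 for Myl12a, 0.82 for Kcmf1 and 0.81 for Ctsl.

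Of the other genes of the pathway, grouped in lists by function, few passed the test for cold averaged over genotypes. That test called 5.65% of all genes in either direction and 1.98% lower. Whether any list differed from these shares was not tested. Among 22 measured muscle ubiquitin ligases 1 fell, Asb2, a cullin adaptor of striated muscle. It was at medians of 26.8 and 27.2 CPM in room-temperature controls and knockouts and at 15 and 12.4 CPM in the cold, with all 16 cold animals below the room-temperature median of their genotype (-0.88 ± 0.21, adjusted p = 0.0104, averaged over genotypes). The atrophy ligases Trim63 (MuRF1) and Fbxo32 (atrogin-1) had -0.28 ± 0.23 (adjusted p = 0.546) and -0.17 ± 0.19 (adjusted p = 0.691). Mul1, a mitochondrial ligase, had -0.48 ± 0.15 (adjusted p = 0.0547). Trim63 was at 1346 and 943 CPM in knockouts 29 and 31, but at 439 in knockout 10.

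None of 19 measured proteasome partners with other symbols passed. The smallest p was that of Txnl1, a thioredoxin bound to the 19S particle, with -0.30 ± 0.10 (adjusted p = 0.0627). The small lid subunit Sem1 was at 56.2 to 360 CPM over the animals and the ubiquitin receptor Adrm1 at 11 to 28.9 CPM. Of 17 measured genes of transcriptional control and the p97 pathway none passed. Vcp, the p97 segregase that extracts ubiquitinated proteins, had 0.18 ± 0.08 (adjusted p = 0.172) and was at 1335, 1698 and 1394 CPM in knockouts 10, 29 and 31 against 829.4 to 1207 in the others. Nfe2l1, the transcription factor that raises proteasome genes when the proteasome is inhibited, had r = -0.12 to the core mean over the 31 animals and -0.64 (rho -0.69) without knockouts 10, 29 and 31. Nfe2l2, of the same list, went the other way, with r of 0.60 and 0.45. The median r of the 17 genes over the 31 animals was 0.49. The spread of r over all genes without the 3 animals was not computed.

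Among 17 measured genes of interferon response and antigen presentation 2 fell in the cold averaged over genotypes, where 1.98% of all genes were called lower. Whether the list differed from that share was not tested. Tapbp, which loads peptides on class I molecules, was at medians of 4.12 and 4.13 CPM in room-temperature controls and knockouts and at 2.83 and 3.27 in the cold (-0.51 ± 0.13, adjusted p = 0.0141), with 14 of 16 cold animals below the room-temperature median of their genotype. Without the 7 animals lowest on the first component its adjusted p was 0.0572. Bst2, an interferon-induced membrane protein, changed by -0.67 ± 0.20 (adjusted p = 0.0393), a call lost in 11 of the 31 fits that leave out 1 animal and without control animals 1 and 2 (adjusted p = 0.0641). The median of the 17 was -0.02, as over all genes. No gene of any of these 4 lists passed in the comparisons other than cold averaged over genotypes.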

How the data were processed

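Gastrocnemius RNA of 31 rats was sequenced as 3′ tag libraries. The authors deposited whole-number counts of reads per gene, and per the submitters' processing notes the genome build was Rnor 6.0; the sources used here do not name the aligner or counter. A second deposited table holds a normalized signal, which equals each count divided by 1 size factor per library (largest relative difference 5.23e-10), and the submitters' processing notes name DESeq2 1.22.2. The tests used the deposited counts.

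Genes were filtered with filterByExpr (minimum count 10, minimum total 15), scaled by TMM and tested by edgeR 4.0.16 quasi-likelihood (R 4.3.3) with 1 mean per group over all 31 libraries (27 residual degrees of freedom), with Benjamini-Hochberg adjustment over 10082 genes and a threshold of 0.05. Log2 levels used a prior count of 2. The standard error is the size of the log2 fold change over the square root of F. Ratios were compared by exact permutation tests (SciPy 1.17.1), adjusted over 8. Alternatives were DESeq2 1.42.0, other scaling, no filter, only the groups compared, the first principal component as a covariate, and fits without single or outlying libraries. Each animal has its own number, so replicates are separate animals; over 105 pairs of libraries within groups, chi-square per degree of freedom was at least 5.62, so no pair agreed within sampling noise. In simulated data for the cold comparison in controls, over 10018 genes, the test recovered 17.9% of 1.5-fold, 64.2% of 2-fold and 87.9% of 3-fold changes. Beside these 12, 43 and 58 changed genes, it also called 10 unchanged genes. Each simulated gene was drawn independently, so shifts shared by many genes of a library, as on the first component, were absent. The shares need not hold for the real libraries.

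The 45 genes and the pathway and marker lists were chosen with earlier results of these data known. Named are the catalytic and inducible subunits, the activators, every gene that passed, and per role the highest, the lowest and the smallest p; of the pathway lists, genes that passed and up to 3 of smallest p. A further pathway list is not reported here. Vcp, Sem1, Adrm1, Nfe2l1, Nfe2l2, Trim63, Fbxo32 and the genes named for animals 10, 29 and 31 or 1 and 2 were chosen after their values were seen. The ratio of Psmb8 to Psmb5 was not run because Psmb8 is not analysed here. The counting is not stated to use strand, so reads of overlapping genes cannot be told apart, and reads of the 19 genes with pseudogenes may be shared.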

Additional observations from a re-analysis of the deposited data

Results flagged for a closer look

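Within each group the highest and the lowest animal were compared with their neighbours for each of the 45 genes, the core mean and the ratios. Of 192 sets of values 17 had an animal apart from the rest of its group. For normally spread values chance gives about 1 in 20, or 9.6. The sets share animals and correlated genes, so how far 17 lies from that number cannot be judged.

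Knockout animal 10 at room temperature accounted for 8 of the 17. It was the highest of its 7 for Psmb4 (261 CPM), Psmd2 (406 CPM), Psmd3 (954 CPM), Psmd6 (142 CPM), Psmd8 (335 CPM), Psmd11 (610 CPM), Psme4 (474 CPM) and the mean log2 level of the core subunits (7.70).

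Control animal 1 was the lowest of the room-temperature controls for Psmd11 (177 CPM) and for the log2 ratio of Psmb9 to Psmb6 (-5.44), and control animal 2 was the highest for Psmd3 (744 CPM). In the same group animal 4 was the highest for Psmd4 (55.5 CPM) and the lowest for Psmd8 (142 CPM).

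In the cold, control animal 17 was the highest of its group for Psmd7 (249.2 CPM) and Psmf1 (41.5 CPM), and control animal 22 the lowest for Psmb7 (298 CPM). Knockout animal 28 was the highest of its group for Psmd10 (3.47 CPM).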

How the results depend on the processing

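Most counts of the 45 genes past the threshold did not move. With the first component of all genes as a covariate, 2 passed for cold in controls (Psmb5 and Psmb6) in place of 0, and 4 passed averaged over genotypes (Psma6, Psmb5, Psmb6 and Psme1) in place of 1. For cold in knockouts, 1 passed (Psme1) in place of 0 with that covariate, in DESeq2, without control animals 1 and 2, without the 7 animals lowest on the first component, and without knockouts 10, 29 and 31, an alternative added after seeing the data. Leaving out 1 animal at a time gave 0 to 1 there, with Psme1 passing in 9 of 31 fits, and no other such count moved. The causes were not tested. Psme1 averaged over genotypes passed in every alternative run, from -0.46 to -0.37.

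The log2 ratio of Psmb9 to Psmb6 between knockouts and controls at room temperature, 0.01, was -0.21 without control animals 1 and 2, and -0.20 to 0.26 leaving out 1 animal at a time. Other ratios that changed sign on leaving out 1 animal were Psmb9 to Psmb6 for cold in knockouts (-0.32 to 0.17) and Psmb10 to Psmb7 for cold in knockouts (-0.13 to 0.16), for knockout at room temperature (-0.073 to 0.19) and for knockout in the cold (-0.17 to 0.10).

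Over all genes, 86 were called for cold in controls, against 379 with the covariate, 219 in DESeq2, 147 without the 3 knockouts, 53 without the 7 animals and 38 without control animals 1 and 2. For cold in knockouts 139 were called, against 674, 322, 84, 146 and 379, and 53 with only the groups compared. Averaged over genotypes 570 were called, against 1274 with the covariate. For knockout in the cold 1 was called, against 8 with the covariate, 6 in DESeq2, 4 without control animals 1 and 2, and 0 with only the groups compared and without the 7 animals. DESeq2 called 1 for knockout at room temperature and 1 for the difference between the cold effects, in place of 0. No paired analysis was possible because each animal has its own number. For cold in controls, the comparison simulated, 17.9% of 1.5-fold changes were recovered among genes drawn independently. The other comparisons were not simulated.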
